A study of Mus musculus with 6 samples.

Results

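AU-rich and stem-loop mRNA decay proteins are RNA-binding proteins that shorten or lengthen the life of short-lived immune mRNAs, and 10 of their genes were followed across 6 libraries of tumour regulatory T cells. The genes were Zfp36, Zfp36l1, Zfp36l2, Rc3h1, Rc3h2, Zc3h12a, Zc3h12d, Elavl1, Khsrp and Hnrnpd, chosen by symbol through the GENCODE M21 annotation, and they are 10 of the 54446 genes counted in each library. All 10 passed the filter on low counts, so none is left out below. The cells were sorted as live, CD45+, CD4+ and Foxp3-GFP+ out of subcutaneous tumours of B16F10, a mouse melanoma line, and their total RNA was sequenced. Regulatory T cells (Treg cells) are the Foxp3-expressing CD4 T cells that hold back other immune cells.

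The control libraries (3), called WT in their titles, came from mice of genotype Foxp3Cre Ythdf2 fl/+ and the libraries labelled Ythdf2 cKO (3) from Foxp3Cre Ythdf2 fl/fl mice. Both groups therefore carry the Foxp3-driven Cre recombinase, and the controls are themselves floxed at 1 of their 2 Ythdf2 alleles. No source used here gives ages. The labels do not tie each library to its own mouse, and p-values then measure only the spread among these samples, some of which may be technical. Cage 1 gave Ythdf2 cKO replicate 1 and control replicates 1 and 2, and cage 2 gave the other 3 libraries. In every sentence below that gives 6 values, they stand in the order control 1, 2, 3 and Ythdf2 cKO 1, 2, 3.

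The libraries held 5602053 to 13602069 gene counts. Ythdf2 itself, the m6A reader that promotes decay of methylated mRNAs, did not mark the labels: it stood at 124, 102, 93.1, 90.1, 104 and 104 CPM (counts scaled to a common library size, adjusted by TMM), and the groups overlapped. Its count is over the whole gene, and which exons Cre deletes is not given in the sources used here. Each direction below is for a library as labelled. The 7 Treg markers Foxp3, Il2ra, Ctla4, Cd4, Cd3e, Ikzf2 and Tnfrsf18 were present in every library, with a summed level of 3404 to 6289 CPM. RNA of other cells was present as well. The sum of 8 melanoma markers was 390, 567, 5347, 52.7, 2671 and 3640 CPM, so the 3 libraries of cage 2 held the most, and all 8 had a count. The sum of 9 macrophage markers, all detected, was 6.22 to 46.8 CPM in cage 1 and 15.7 to 205 CPM in cage 2. The sums were 4.86 to 16.5 CPM for 5 B cell markers and 7.62 to 25.9 CPM for 5 CD8 T and NK cell markers, of which Klrb1c was at 0 in every library. Mitochondrially encoded genes took 45.1% of the counts in control replicate 3 and 10.6% to 20.5% in the others. In sorted bulk RNA, fewer cells of a type and less RNA per cell cannot be told apart.

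ZFP36 proteins (tristetraprolin, encoded by Zfp36, and its paralogues) bind AU-rich elements in 3' UTRs through paired CCCH zinc fingers and recruit the CCR4-NOT deadenylase. Roquin-1 and Roquin-2 (Rc3h1 and Rc3h2) bind short hairpins called constitutive decay elements, and Regnase-1 (Zc3h12a) is an endoribonuclease that cuts at similar hairpins. HuR (Elavl1) competes for AU-rich sites and is known mainly for stabilising mRNAs, while KSRP (Khsrp) and AUF1 (Hnrnpd) bind the same class of sites and are tied mostly to decay. In T cells those of these proteins that promote decay limit cytokine and costimulator mRNAs, and Roquin and Regnase-1 are known to restrain T cell activation.

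Several members carry in their own 3' UTRs the elements that their proteins read. The AU-rich heptamer TATTTAT was searched on the sense strand only, with overlapping matches counted, in the 3' UTR of 1 principal transcript per gene (GENCODE M21, mm10). It was found in 6 of the 10 members, and in 29.55% of all 11229 3' UTRs of tested genes. Rc3h1 held 2 copies and Rc3h2 held 3, where 74.48% and 64.06% of 3' UTRs of like length held any. Zfp36, Zfp36l1 and Zfp36l2 each held 3 copies. Of 3' UTRs of tested genes within 25% of the same length, 20.95% held any copy for Zfp36, 37.48% for Zfp36l1 and 37.27% for Zfp36l2, and at least 3 copies were in 1.06%, 3.59% and 3.5%. Elavl1 held 8 copies in a 3' UTR of 4218 bases, where 60.71% of 3' UTRs of like length had any. The windows below show 1 site of each ZFP36 family gene and of Elavl1, beside the AU-rich element of Tnf, the best known ZFP36 target, with the heptamers in capitals.
Zfp36, chr7:28376966-28376994, minus strand: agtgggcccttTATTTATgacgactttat
Zfp36l1, chr12:80108422-80108450, minus strand: ttatcaaaacgTATTTATtgccaaactat
Zfp36l2, chr17:84184914-84184942, minus strand: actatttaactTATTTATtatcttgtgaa
Elavl1, chr8:4285784-4285812, minus strand: tgaaaatTATTTATTTATTTATTTATttt
Tnf, chr17:35199678-35199706, minus strand: TATTTATTATTTATTTATTATTTATTTAT

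Hairpins of the kind that Roquin and Regnase-1 bind were searched as 5 Watson-Crick pairs around a loop of 3 bases of the form pyrimidine, purine, pyrimidine, on the sense strand. They were found in 4 of the 10 members, and in 23.32% of all 3' UTRs. Hnrnpd held 1, where 61.26% of 3' UTRs of like length held any. Zc3h12a held 3 in a 3' UTR of 856 bases, where 16.96% of 3' UTRs of like length held any. Rc3h2 held 2 and Rc3h1 held 4, in long 3' UTRs where 59.53% and 66.9% of those of like length held any, so their presence there is near the background. Rc3h1 and Rc3h2 shared a pair of these hairpins. ATATATATTATAT stood in 42 of 11229 3' UTRs (0.374%) and ACTTCTGTGAAGT in 5 (0.045%). The central 9 bases of the latter, TTCTGTGAA, are also those of the constitutive decay element of Tnf, and 2.592% of 3' UTRs hold them. Stems and loops are in capitals.
Rc3h1, chr1:160971655-160971679, plus strand: ccaataACTTCTGTGAAGTtgcctt
Rc3h2, chr2:37373804-37373828, minus strand: taattaACTTCTGTGAAGTtgttta
Zc3h12a, chr4:125119064-125119088, minus strand: ctgttgATACACATTGTATctctgt
Zc3h12a, chr4:125118882-125118906, minus strand: tagttaGGCACCATGTGCCtgctct
Tnf, chr17:35199580-35199604, minus strand: gacatgTTTTCTGTGAAAAcggagc
A match describes the letters and is not evidence of binding in these cells.

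Set on a common scale of CPM per kilobase of exon, so that genes can be compared, the members spread widely. Zfp36l2 and Zfp36l1 were the highest and close to each other, at 188 ± 53.6 and 187 ± 53.1 (mean ± SD over all 6 libraries), and Zfp36l2 exceeded Zfp36l1 in 4 of 6 libraries. Zfp36l2 lay above 98.99% of tested genes on that scale. Zfp36 followed at 74.4 ± 18.9, below Zfp36l1 in all 6 libraries and above Zc3h12a in all 6. Zc3h12a (47.8 ± 9.79) and Khsrp (44.4 ± 7.99) were not separated, Zc3h12a being the higher in 2 of 6 libraries. Hnrnpd (28.8 ± 6.95) and Zc3h12d (21.7 ± 7.67) came next. Rc3h1 (13.4 ± 1.57) and Elavl1 (13.2 ± 1.65) were not separated either, and Rc3h2 was lowest at 8.22 ± 0.612, below Elavl1 in all 6 libraries. Exon length is the union over all annotated transcripts, 19624 bases for Rc3h2, so a gene with long alternative ends is placed too low on this scale. The lowest member count in any library was 392 reads and the highest 9875, a counting error of 5.05% to 1.01%. That is smaller than the range of each member over the 6 libraries in CPM, 1.24-fold to 2.37-fold. Some pairs of libraries described below differ by amounts of the size of that error, as for Elavl1 at 139 CPM (Ythdf2 cKO replicate 2) and 145 CPM (control replicate 2).

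The first comparison was between the libraries labelled Ythdf2 cKO and the controls, in which Ythdf2 itself overlapped. No member passed the threshold (adjusted p under 0.05 by Benjamini and Hochberg over 13172 genes, from the quasi-likelihood test of edgeR), and neither did any other gene (0%). At an unadjusted p under 0.05 the edgeR count was 0 members against 1.62% of all genes. Of the 10 members 6 had a log2 fold change above 0, where 49.3% of all genes did, and their median was 0.06 against -0.0049 for all genes. The edgeR adjusted p was 1.00 for every member in this comparison and is not repeated below.

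**Figure D1:**
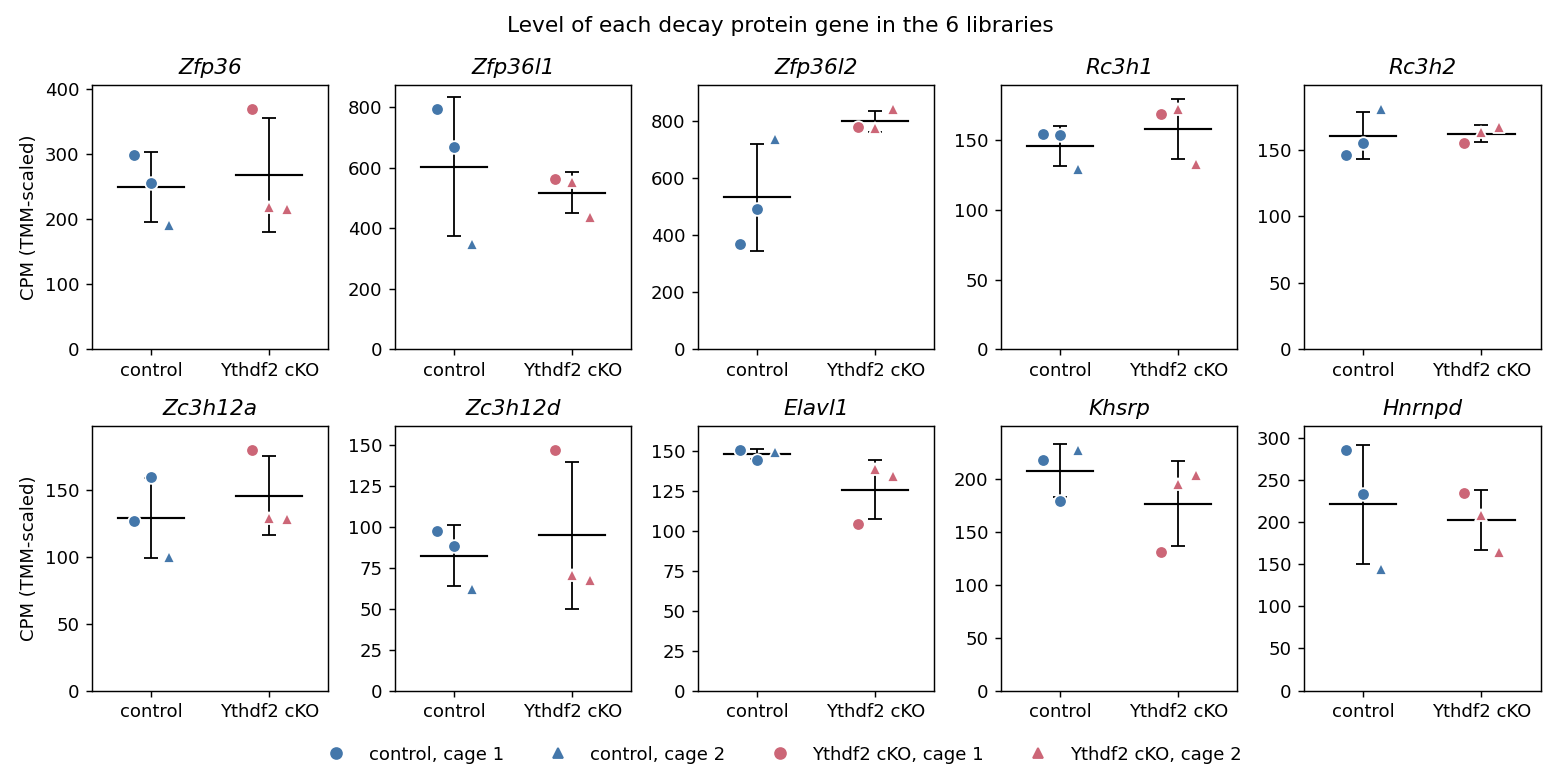
Level of each of the 10 genes in CPM (y axis, from 0) by genotype (x axis), with circles for cage 1 and triangles for cage 2; horizontal bars are means and error bars SDs over 3 libraries. The groups are separate for Zfp36l2, with the Ythdf2 cKO libraries at 774 to 841 CPM against 370 to 735, and for Elavl1, at 105 to 139 against 145 to 151.

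Within the ZFP36 family, Zfp36l2 (ENSMUSG00000045817, chromosome 17, 84183931 to 84187947, mm10) gave the smallest p between genotypes. With Zfp36l1 it is known to hold developing lymphocytes in quiescence. It stood at 370, 489, 735, 779.6, 774 and 841 CPM. All 3 Ythdf2 cKO libraries lay above all 3 controls, and the cage 1 controls were the lowest of the 6. Controls averaged 532 ± 186 CPM and Ythdf2 cKO libraries 798 ± 37.2 CPM (SD, n = 3 each), a log2 fold change of 0.59 (standard error 0.26, 95% interval -0.0100 to 1.18, edgeR). Groups without overlap and higher in Ythdf2 cKO were seen for 1 of 10 members and for 3.4% of all genes. Within cage 1 the log2 difference was 0.86 and within cage 2 it was 0.13, where control replicate 3 was close to the Ythdf2 cKO libraries. It was 0.92 with control replicate 3 left out and 0.38 with control replicate 1 left out.

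Zfp36l1 (ENSMUSG00000021127, chromosome 12, 80107754 to 80113013) stood at 793, 668, 348, 563, 551 and 438 CPM. Control replicates 1 and 2 were the highest and control replicate 3 the lowest, so the Ythdf2 cKO libraries lay inside the range of the controls. The log2 fold change was -0.22 (standard error 0.30, 95% interval -0.92 to 0.48, edgeR). The within-cage differences went opposite ways, -0.37 in cage 1 and 0.51 in cage 2, and the sign turned with cage as a term (0.064). Zfp36 (ENSMUSG00000044786, chromosome 7, 28376784 to 28380253), an immediate-early gene whose protein destabilises Tnf mRNA, stood at 298, 256, 191, 369, 219 and 216 CPM. Ythdf2 cKO replicate 1 was the highest library and control replicate 3 the lowest. Its log2 fold change was 0.11 (standard error 0.26, interval -0.51 to 0.73), and it was -0.20 without Ythdf2 cKO replicate 1 and -0.02 without control replicate 3.

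Because the 3 paralogues did not move together, the make-up of the family differed between libraries. The summed family level was 456, 436, 380.0, 516, 467 and 447 CPM per kilobase. The share of Zfp36l2 was 23.0%, 31.8%, 54.8%, 42.8%, 47.0% and 53.3%, and that of Zfp36l1 58.2%, 51.3%, 30.7%, 36.6%, 39.5% and 32.8%. Zfp36 held 13.5% to 20.6%. The shares do not depend on library scaling. Zfp36l1 was the leading paralogue in control replicates 1 and 2, and Zfp36l2 in the other 4 libraries, including all 3 of cage 2. The log2 ratio of Zfp36l2 to Zfp36l1 was -1.34, -0.69, 0.84, 0.23, 0.25 and 0.70, so control replicate 3 had the highest ratio of all and the genotypes overlapped. The cages were only just separate, with Ythdf2 cKO replicate 1 of cage 1 at 0.23 and Ythdf2 cKO replicate 2 of cage 2 at 0.25. The mean ratio was -0.60 ± 0.79 in cage 1 and 0.60 ± 0.31 in cage 2 (SD, n = 3 each). How often ratios of other genes separate by cage was not counted.

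**Figure D2:**
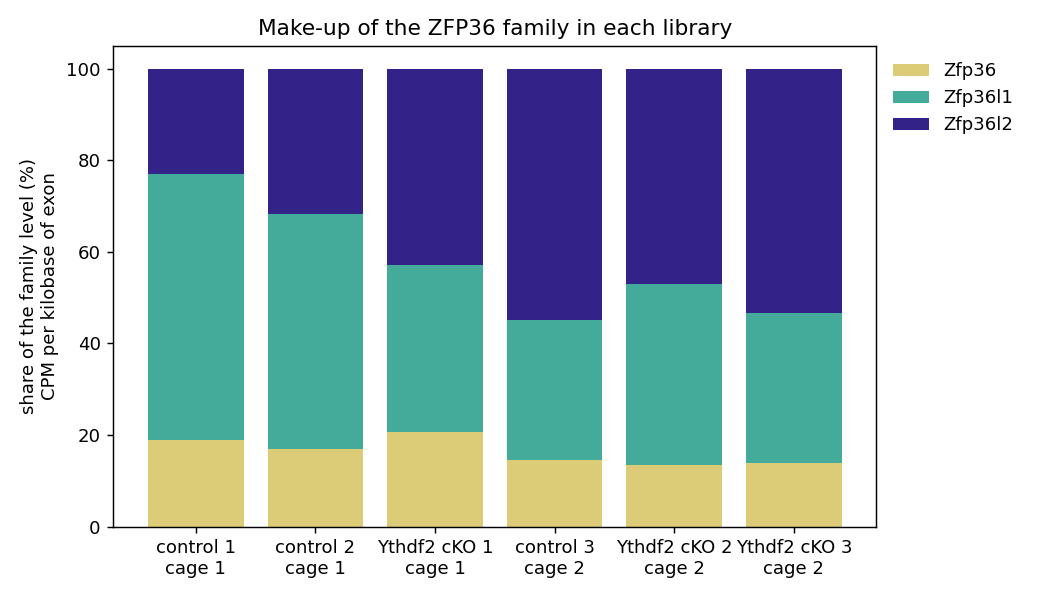
Share of Zfp36, Zfp36l1 and Zfp36l2 (y axis, percent of the summed CPM per kilobase of exon) in each library (x axis), ordered by cage. Zfp36l2 takes 23.0% and 31.8% in the cage 1 controls and 42.8% to 54.8% in the other 4 libraries.

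The Roquin genes were the steadiest members in CPM. Rc3h1 (ENSMUSG00000040423, chromosome 1, 160906418 to 160974978) stood at 154, 153, 129, 169, 172 and 133 CPM, and Rc3h2 (ENSMUSG00000075376, chromosome 2, 37370069 to 37422903) at 146, 155, 181, 155, 164 and 167 CPM. The highest library exceeded the lowest 1.33-fold for Rc3h1 and 1.24-fold for Rc3h2, against 1.44-fold to 2.37-fold for the other members. The genotypes overlapped in both. The log2 fold changes were 0.12 (95% interval -0.26 to 0.49) and 0.01 (-0.31 to 0.34, edgeR), which leaves room for changes of either sign within those bounds. Unprocessed transcripts annotated on the same strand inside Rc3h1 (Gm37052, Gm37653 and Gm37809) held 5 to 86 counts per library, far below the 818 to 2262 counts of Rc3h1.

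Of the Regnase genes, Zc3h12a (ENSMUSG00000042677, chromosome 4, 125118423 to 125127840) stood at 127, 160.4, 100.3, 180.2, 129 and 129 CPM. The genotypes overlapped, with control replicate 3 the lowest and Ythdf2 cKO replicate 1 the highest. The log2 fold change was 0.17 (standard error 0.22, interval -0.35 to 0.69), and the differences within cages 1 and 2 were alike, 0.32 and 0.36. Without Ythdf2 cKO replicate 1 it was -0.01. Zc3h12d (Regnase-4, ENSMUSG00000039981, chromosome 10, 7832470 to 7870396) is a relative of Regnase-1 found mainly in lymphocytes. It stood at 97.4, 87.9, 61.9, 147, 70.6 and 67.4 CPM, with Ythdf2 cKO replicate 1 far above the rest. It had the widest range of the 10 members, 2.37-fold. The log2 fold change was 0.20 (standard error 0.33), and it was -0.26 without Ythdf2 cKO replicate 1, so its sign rested on that library.

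Elavl1 (ENSMUSG00000040028, chromosome 8, 4285382 to 4325413) was the member that separated the genotypes downwards. It stood at 151, 145, 149.7, 105, 139 and 135 CPM. The controls were tightly grouped and all 3 Ythdf2 cKO libraries lay below them, Ythdf2 cKO replicate 1 the furthest. The means were 148 ± 3.18 and 126 ± 18.6 CPM (SD, n = 3 each), with a log2 fold change of -0.23 (standard error 0.15, interval -0.59 to 0.12, edgeR). Groups without overlap and lower in Ythdf2 cKO were seen for 1 of 10 members and for 4.22% of all genes. The differences within cages 1 and 2 were -0.49 and -0.13, and the fold change was -0.12 with Ythdf2 cKO replicate 1 left out. Ccl25, a chemokine gene, overlaps Elavl1 on the opposite strand and held 47 to 156 counts against 640 to 2140 for Elavl1. The strand setting of the counting is not given in the sources used here.

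Khsrp and Hnrnpd completed the set. Khsrp (ENSMUSG00000007670, chromosome 17, 57021051 to 57031522) stood at 217, 179, 227, 130.4, 195 and 204 CPM, with Ythdf2 cKO replicate 1 the lowest and the groups overlapping. Its log2 fold change was -0.24 (standard error 0.20), -0.60 within cage 1 and -0.19 within cage 2. It was -0.064 with Ythdf2 cKO replicate 1 left out. Hnrnpd (ENSMUSG00000000568, chromosome 5, 99955935 to 99978938) stood at 285, 233, 145, 234, 208 and 165 CPM. The controls spanned the Ythdf2 cKO libraries on both sides, with a log2 fold change of -0.13 (standard error 0.26) that was 0.11 with cage as a term. Of the 10 members 3 (Zfp36l1, Rc3h2 and Hnrnpd) went opposite ways in the 2 cages, where 44.5% of all genes did.

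With cage as a term beside genotype, the intervals of most members narrowed. Still 0 members and 0% of all genes passed the threshold, and 6 members had an unadjusted edgeR p under 0.05, where 10.2% of all genes did. Zfp36l2 was then 0.50 higher on the log2 scale (interval 0.10 to 0.90), Zc3h12d 0.42, Zc3h12a 0.34 and Zfp36 0.30, while Elavl1 was at -0.31 and Khsrp at -0.39. Their adjusted p ran from 0.45 to 0.49. Markers of the cell types moved in the same comparison. Within cages 1 and 2 the mean of the Treg markers differed by 0.12 and 0.32 (log2, Ythdf2 cKO minus control) and that of the melanoma markers by -2.69 and -0.80. Taken relative to the Treg markers of the same library, the within-cage differences were 0.30 and -0.14 for Zfp36, 0.76 and -0.19 for Zfp36l2, and 0.55 and -0.17 for Zc3h12d, so these went opposite ways in the cages. For Zc3h12a they were 0.22 and 0.04, above 0 in both. For Elavl1 they were -0.61 and -0.45 and for Khsrp -0.71 and -0.51, below 0 in both. A gene unchanged in CPM also lies below 0 in both cages on this scale, since the marker mean rose. The median within-cage differences of all genes in CPM were -0.089 and 0.015. Every within-cage value rests on a single library on either side, Ythdf2 cKO replicate 1 in cage 1 and control replicate 3 in cage 2. A fit added after seeing the data had the melanoma marker mean as a covariate in place of cage. In it Zfp36l2 was at 0.64, Zc3h12d at 0.09, Zc3h12a at 0.15, Zfp36 at 0.05, Elavl1 at -0.23 and Khsrp at -0.24. Beyond that fit the part of the tumour RNA in these values was not tested. A test of whether the genotype difference itself differed between cages passed for 0 members and 0.0456% of all genes, with 2 members and 14.3% of genes at an unadjusted p under 0.05. Those 2 were Zfp36l1 (log2 interaction 0.88, standard error 0.28, edgeR adjusted p = 0.27) and Zfp36l2 (-0.72, standard error 0.28, adjusted p = 0.31).

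**Figure D3:**
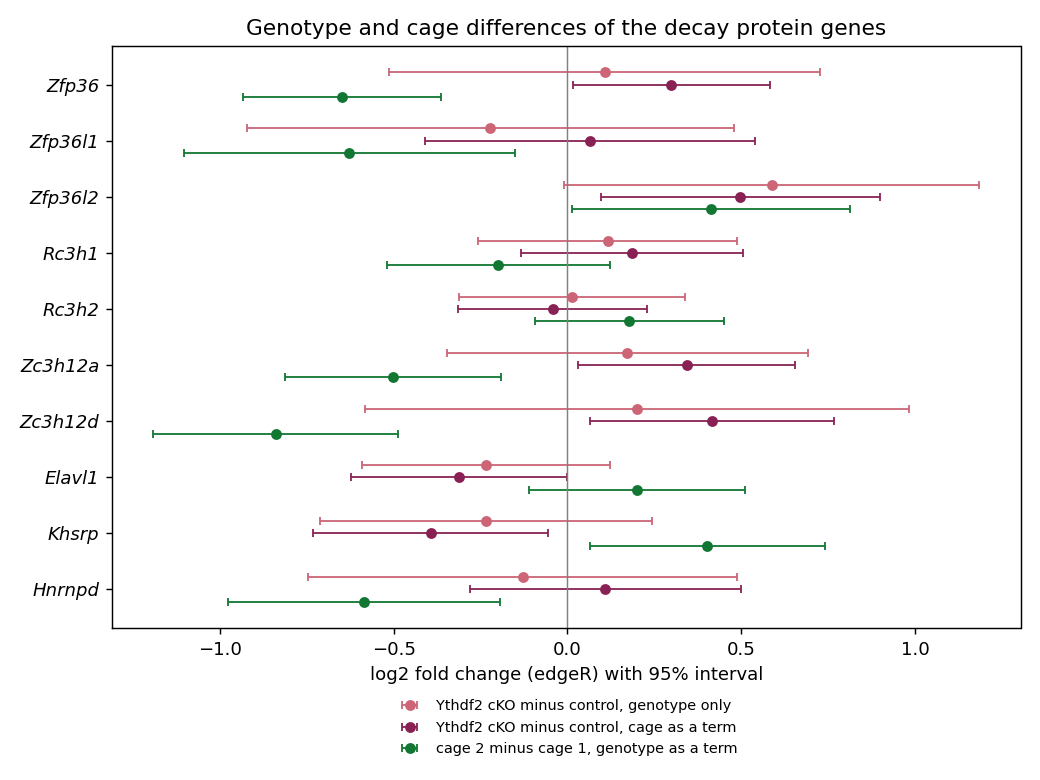
Log2 fold change of each gene (x axis) with its 95% interval from edgeR, for Ythdf2 cKO minus control with genotype only, the same with cage as a term, and cage 2 minus cage 1 with genotype as a term. The cage intervals of Zfp36 (-0.93 to -0.36), Zc3h12a (-0.81 to -0.19) and Zc3h12d (-1.19 to -0.49) lie below 0. So do those of Zfp36l1 (-1.10 to -0.15) and Hnrnpd (-0.98 to -0.19). Those of Zfp36l2 (0.01 to 0.81) and Khsrp (0.06 to 0.74) lie above 0. The intervals are not adjusted for the number of genes tested.

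The second comparison was between cages. Zfp36, Zc3h12a and Zc3h12d were lower in cage 2 than in cage 1 with genotype in the fit, 3 of 10 members, where 3.68% of all genes were called lower and 7.83% higher (485 and 1031 genes, or 732 and 646 when scaled by total counts alone). Zfp36 averaged 308 ± 57.1 CPM in cage 1 and 209 ± 15.1 CPM in cage 2 (SD, n = 3 each), with every cage 2 library below every cage 1 library. Its log2 difference was -0.65 (standard error 0.13, edgeR adjusted p = 0.013). Zc3h12d averaged 111 ± 31.5 and 66.6 ± 4.44 CPM, also without overlap, with a difference of -0.84 (standard error 0.16, adjusted p = 0.010). Zc3h12a averaged 156 ± 26.8 and 119 ± 16.5 CPM with overlapping cages (difference -0.50, standard error 0.14, adjusted p = 0.047). That call was lost in 9 of 15 alternatives, and those of Zfp36 and Zc3h12d in 3 of 15 each. Without Ythdf2 cKO replicate 1, the adjusted p was 0.13 for Zfp36, 0.14 for Zc3h12d and 0.19 for Zc3h12a. Without Ythdf2 cKO replicate 3 it was 0.065, 0.052 and 0.14. The call of Zc3h12a also ended when control replicate 2 or 3 was left out, at 0.155 and 0.158, as it did without Ythdf2 cKO replicate 2, at 0.0987. With cage as the only term the adjusted p was 0.062 for Zfp36, 0.058 for Zc3h12d and 0.23 for Zc3h12a.

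Other members also lay on 1 side by cage. Cages without overlap were seen downwards for 4 members (Zfp36, Zfp36l1, Zc3h12d and Hnrnpd), where 12.2% of all genes did so, and upwards for Rc3h2, where 15.1% did. Zfp36l1 (log2 difference -0.63, edgeR adjusted p = 0.092) and Hnrnpd (-0.59, adjusted p = 0.061) missed the threshold, and each passed it in 4 of 15 alternatives. With control replicate 3 left out they were -0.17 (adjusted p = 0.58) and -0.32 (adjusted p = 0.33), and with Ythdf2 cKO replicate 1 left out -1.08 and -0.85. Zfp36l2 (0.41, adjusted p = 0.18) and Khsrp (0.40, adjusted p = 0.12) lay in the other direction. Zfp36l2 was at 0.07 with control replicate 3 left out, 0.77 with Ythdf2 cKO replicate 1 left out and 0.28 with control replicate 1 left out. Khsrp was at 0.19 with Ythdf2 cKO replicate 1 left out and 0.63 with control replicate 3 left out. Under total-count scaling Zfp36l2 was at 0.08 and Khsrp at 0.07, and Rc3h2 and Elavl1 turned sign (-0.16 and -0.14). Cage and the tumour RNA that goes with it cannot be told apart in these libraries.

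The Treg markers themselves were lower in cage 2 by a similar amount. Of the 7 markers 5 were called lower, among them Foxp3 (log2 difference -0.65, standard error 0.12, edgeR adjusted p = 0.0091), and 0 higher, while all 8 melanoma markers and 4 of the 8 macrophage markers that were tested were called higher. Set against the mean log2 level of the 7 Treg markers in the same library, Zfp36 differed between the cage means by 0.062, Zfp36l1 by -0.0016, Zc3h12d by -0.09 and Hnrnpd by 0.06. On this scale the range of Zfp36 over the 6 libraries was 1.29-fold, where its CPM range was 1.93-fold. That of Hnrnpd was 1.28-fold, where its CPM range was 1.97-fold. Those of Rc3h1 and Rc3h2 were 1.49-fold and 2.2-fold, wider than their CPM ranges of 1.33-fold and 1.24-fold. The other members stood higher in cage 2 relative to the markers, by 1.19 for Zfp36l2, 0.88 for Khsrp, 0.77 for Rc3h2, 0.70 for Elavl1, 0.46 for Rc3h1 and 0.23 for Zc3h12a (log2). The marker mean itself differed by -0.61 between cages, where the median of all genes in CPM was 0.01. A gene with the same CPM in both cages therefore stands higher in cage 2 on this scale, by the size of the marker fall. The Zfp36l2 values were -0.98, -0.49, 0.84, 0.02, 0.46 and 0.84, so each cage 2 library exceeded each cage 1 library. In CPM its cages overlapped, with Ythdf2 cKO replicate 1 (779.6) above control replicate 3 (735) and Ythdf2 cKO replicate 2 (774). The share of all genes that separate by cage on the marker scale was not counted. The level of these genes in the tumour cells is not known from these libraries, and its part was not tested.

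**Figure D4:**
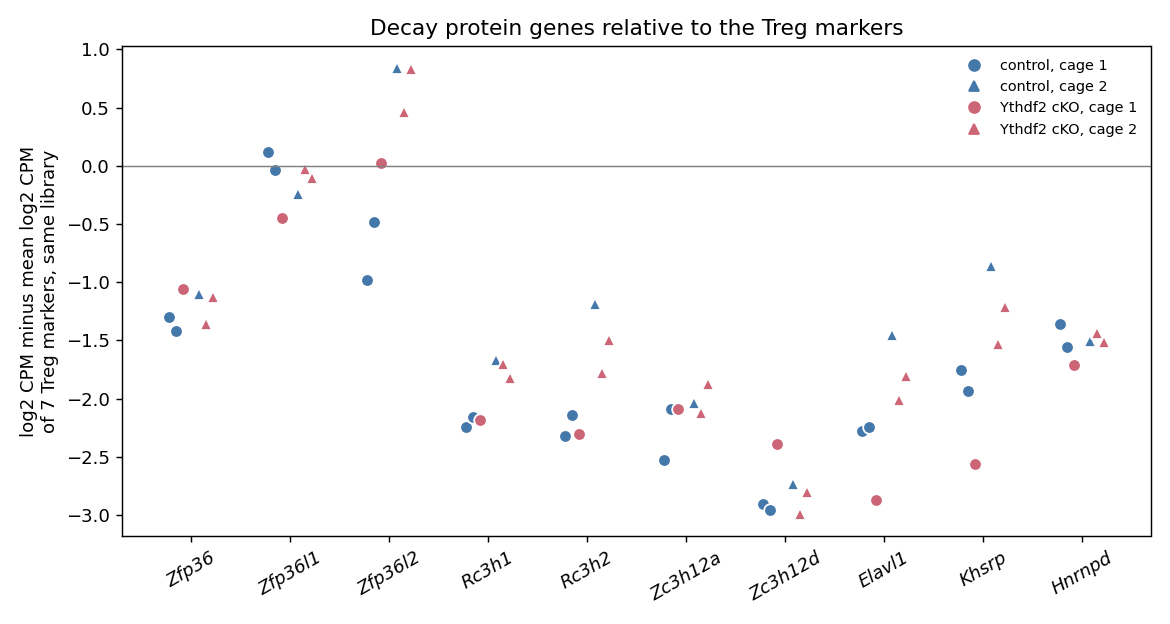
Log2 CPM of each gene minus the mean log2 CPM of 7 Treg markers in the same library (y axis), by gene (x axis), with circles for cage 1, triangles for cage 2 and colours for genotype. Zfp36 and Hnrnpd span 1.29-fold and 1.28-fold over the 6 libraries, and Zfp36l2 spans 3.54-fold with cage 2 above cage 1. In CPM the cages overlap for Zfp36l2.

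Known target mRNAs of these proteins were described from lists taken from the field's knowledge. Zfp36 and Zc3h12a are each in 1 of the lists. Of 25 known ZFP36 targets 18 were measured, 9 above and 9 below 0 between genotypes, with a median log2 fold change of -0.0034. Of 21 known Roquin or Regnase targets 16 were measured, 9 above 0, with a median of 0.0057. In both lists 0 genes passed the edgeR threshold in either direction and 0 had an unadjusted p under 0.05. Socs3, a brake on cytokine signalling, had the smallest p of the ZFP36 targets and stood at 85.4, 55.5, 63.9, 143, 77.7 and 78.5 CPM, with overlapping groups. Csf2, the cytokine GM-CSF, was low throughout, at 3.25 to 5.52 CPM in control libraries against 0.104 to 2.12 CPM, without overlap (log2 fold change -1.61, standard error 0.95). These values are near the floor. Groups without overlap were seen downwards for 1 and upwards for 0 of the 18, and for 4.22% and 3.4% of all genes. Icos, the costimulator that Roquin represses, was at 593 ± 119.7 and 589 ± 186 CPM (SD, n = 3 each).

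By cage, 7 of the 16 Roquin or Regnase targets were called lower and 0 higher, beside the 3.68% and 7.83% of all genes, with a median log2 difference of -0.55 against 0.01 for all genes. Besides Zc3h12a itself these were Icos (-0.64), Nfkbid (-0.54), Nfkbiz (-0.56), Tnfrsf9 (-0.79), Tnfrsf18 (-0.78) and Nfkbia (-0.67). They encode T cell costimulators and inhibitors or cofactors of NF-kB, and their differences were of the size of the Foxp3 difference given above. Tnfrsf18 is also among the Treg markers. Of the 18 ZFP36 targets 3 were called lower (Pim1, Notch1 and Zfp36) and 1 higher. The higher one was Vegfa, the vascular growth factor, at 3.12. The median cage difference was 4.50 for the melanoma markers and 3.05 for the macrophage markers. Which cells the Vegfa RNA came from was not tested.

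Immediate-early genes, which respond within minutes to stimulation and to tissue handling, were followed beside Zfp36, which belongs to that class. The list of 21 genes also held the heat shock chaperone genes Hspa1a, Hspa1b, Hsph1 and Dnajb1, which are not immediate-early genes. Of the 21 genes 13 lay above 0 between genotypes (median 0.07 on the log2 scale), and 0 were called. The summed level of the 21 was 6322, 6649.5, 5078, 7818, 5712 and 5279 CPM. Ythdf2 cKO replicate 1 was the highest and control replicate 3 the lowest, as for Zfp36. Junb alone held 932 to 1910.5 CPM of the sum, and not every gene followed it. Egr1 was lowest in control replicate 1 (206 CPM), and Jun was highest in Ythdf2 cKO replicate 3 (249 CPM). Hspa1a was lowest in Ythdf2 cKO replicate 1 (38.2 CPM). By cage 6 of the 21 were called lower, among them Junb (-0.78), Ier5 (-0.72) and Fosb (-0.65), and 0 higher. The differences of those named were of the size of that of the Treg marker Foxp3 (-0.65). Of all genes 3.68% were called lower and 7.83% higher. The part of tissue handling in the Zfp36 values was not tested.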

How the data were processed

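RNA of sorted tumour Treg cells was read in 6 libraries (SMARTer Stranded Total RNA-Seq Kit v2). The authors deposited raw read counts per Ensembl gene. Per the submitters' processing notes the tools were Trimmomatic 0.39, HISAT2 2.1.0, HTSeq and DESeq2, and the build mm10. No source used here gives the annotation release or strand setting. Rows naming no gene stayed out (no feature 24.6% to 35.8%, ambiguous 1.43% to 2.21%, not unique 9.22% to 12.9% of records). Of 54446 genes, 54409 matched GENCODE M21. Every pair of libraries differed beyond sampling noise (lowest chi-square divided by its degrees of freedom 15.8).

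Genes were filtered with filterByExpr (minimum count 10, total 15), given TMM factors and tested on all 6 libraries with edgeR 4.0.16 (quasi-likelihood, R 4.3.3), p-values adjusted by Benjamini and Hochberg over 13172 genes. The genotype fit had genotype only, the cage fit genotype and cage. DESeq2 1.42.0 and limma 3.58.1 (voom) were alternatives, beside other scaling, filters, a replicate block and each library left out. On simulated counts with 200 changed genes, 0% of 2-fold, 53.5% of 4-fold and 58.5% of 8-fold changes were recovered between genotypes, with 1, 8 and 6 false calls. Between cages 29%, 69.5% and 77% were recovered, with 3, 7 and 15 false calls. The members and lists were chosen with earlier results of these data known. All members are named, with at most the 4 genes of smallest genotype p and the 4 most abundant of each list, and the 5 nearest profiles of 2 members. Pcbp1, Vegfa, Nfkbid, Nfkbiz, Tnfrsf18, Ier5 and the 3' UTR and Treg-relative measures were chosen after values were seen.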

Additional observations from a re-analysis of the deposited data

How the results depend on the processing

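The genotype comparison called 0 genes with edgeR under every alternative run except 2. Without the low-count filter it called 33, and with control replicate 3 and Ythdf2 cKO replicate 1 both left out, an alternative chosen after seeing the data, it called 460. That last fit sets cage 1 controls against cage 2 libraries labelled Ythdf2 cKO, so genotype and cage cannot be told apart in it, and Zfp36l2 passed there (0.92, edgeR adjusted p = 0.021), while Zfp36 (-0.34), Rc3h1 (-0.0027), Zc3h12a (-0.15), Zc3h12d (-0.42) and Khsrp (0.018) changed sign. With a melanoma marker covariate, also added after seeing the data, 0 genes were called. With cage as a term Zfp36l1 (0.064), Rc3h2 (-0.043) and Hnrnpd (0.11) changed sign. With each library left out the genotype fold change kept 0 calls and ran from -0.20 to 0.25 for Zfp36, -0.47 to 0.020 for Zfp36l1, -0.055 to 0.13 for Rc3h2, -0.012 to 0.35 for Zc3h12a, -0.26 to 0.39 for Zc3h12d, -0.33 to 0.093 for Hnrnpd, -0.32 to -0.12 for Elavl1 and -0.36 to -0.064 for Khsrp.

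The cage comparison called 1516 genes, 3441 with DESeq2, 2347 without the filter, 849 with cage as the only term, and 660 to 1234 with each library left out. With total counts as the only scaling it called 646 higher and 732 lower, against 1031 and 485, the median of all genes moved by -0.32, and Rc3h2 (-0.16) and Elavl1 (-0.14) changed sign. The interaction called 6 genes, 30 with total counts, 4 with limma-voom, and 3 when a mean of 5 CPM was required. Replicate numbers did not pair the libraries (correlations of same-numbered deviations 0.41, -0.24 and 0.55), and with the replicate block 0 genes were called. At 2-fold the simulated test recovered 0% between genotypes and 29% between cages, so changes of that size could be missed, while counting error on the members was at most 5.05%.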

Other observations

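Related RNA-binding proteins outside the 10 members were followed too. Of 22 such genes 19 were measured, 8 above and 11 below 0 between genotypes (median -0.01 on the log2 scale), and 0 passed the edgeR threshold or an unadjusted p under 0.05. N4bp1, an endoribonuclease related to Regnase-1, stood at 166, 157, 136, 258, 173 and 178 CPM in control 1, 2, 3 and Ythdf2 cKO 1, 2, 3, without overlap. Nufip2, a cofactor of Roquin, lay above the controls in all 3 libraries labelled Ythdf2 cKO, at 132 to 156 against 157 to 192 CPM. Hnrnpa0 (135 ± 4.36 and 115 ± 3.43 CPM) and Ptbp1 (348 ± 16.5 and 307 ± 15.6 CPM; SD, n = 3 each), a polypyrimidine tract binding protein, lay below without overlap. Such separation was seen upwards for 2 and downwards for 2 of the 19, and for 3.4% and 4.22% of all genes. By cage, Pcbp1, a poly(C) binding protein, was called higher (log2 difference 0.56, edgeR adjusted p = 0.043).

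Among 16 kinases, proteases and cofactors that act on the members, 9 lay above 0 between genotypes and 0 passed. Malt1, the protease that cleaves Regnase-1 and Roquin after T cell receptor signals, stood at 374, 356, 313, 509, 323 and 302 CPM, with Ythdf2 cKO replicate 1 the highest.

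Profiles over the 6 libraries were compared by the root mean square difference of centred log2 CPM, among 6207 other genes with a mean of at least 20 CPM. Nearest to Zc3h12d were Vrk2 (0.02), Nt5dc1 (0.07), Ttc39c (0.08), Dhrs7 (0.09) and Dcaf11 (0.09), where the median gene differed by 0.43. Nearest to Zfp36l2 were Firre (0.14), Tsc22d3 (0.15), Ralb (0.15), Pik3ap1 (0.15) and Tob1 (0.16), where the median was 0.53. Tob1, a gene against proliferation, stood at 34.3, 43.0, 58.5, 56.7, 54.6 and 58.3 CPM, lowest in the cage 1 controls as Zfp36l2 was.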
